A study of Mus musculus with 5 samples.

Results

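KAP1 and Ring1b were both found at 5236 promoter regions of mouse embryonic stem cells, and at 1605 of them (30.7%, 95% exact interval 29.4% to 31.9%) the summits of the paired peaks lay 500 bp or more apart. A summit is the base at which the peak caller places the top of a peak. The 1605 promoters belong to 1588 genes and are called the far promoters here. They were chosen by that distance alone, so the distance and everything else about the same pair of peaks is given as a description, with no test. The comparison is with the 1844 close promoters (35.2%), where the summits lay 100 bp or less apart, and the remaining 1787 lay in between. All deposited promoter regions, with either protein or both, numbered 13039.

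The data are from chromatin immunoprecipitation and sequencing (ChIP-seq) of 5 libraries, 1 per group, so no value has a replicate error. KAP1 was mapped in KAP1 fl/fl cells given vehicle (ethanol), against KAP1 fl/fl cells given 4-hydroxytamoxifen. Ring1b was mapped in Ring1b fl/fl cells given vehicle, against Ring1b fl/fl cells given 4-hydroxytamoxifen. The remaining library held Ring1b from KAP1 fl/fl cells given 4-hydroxytamoxifen, and its control was the Ring1b library of tamoxifen-treated Ring1b fl/fl cells. The fl/fl cells carry conditional alleles, and the labels call the tamoxifen-treated cells knockouts; which recombinase acts is not stated in the labels. Treatment lasted 24 h and was followed by 48 h of culture, which for Ring1b fl/fl cells had tamoxifen in the medium and for KAP1 fl/fl cells did not. All cells grew on irradiated mouse embryonic fibroblasts, and whether these feeder cells were removed is not given. Each summit distance therefore compares a KAP1 peak of one line with a Ring1b peak of another line, and line and protein cannot be told apart. Peak lists hold no expression, so the cell type could not be checked against its markers.

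KAP1, encoded by Trim28, is a corepressor that zinc finger proteins of the KRAB family bring to DNA, and it recruits a histone methyltransferase and heterochromatin proteins. Ring1b, encoded by Rnf2, is the ubiquitin ligase of Polycomb repressive complex 1. In embryonic stem cells that complex covers the CpG-rich promoters of genes that drive later development, often over several kilobases around regulators such as the Hox genes, and holds them silent.

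Reference sequence was found for 859 far promoters, and 6 promoters are shown here because their summits lie inside or outside the window in different ways. Each sequence runs 5′ to 3′ on the gene's strand, from 250 bases before the RefSeq transcript start to 50 bases after it (GRCm38.p6), and capitals mark CpG dinucleotides. In Zfp503, Msx1 and Hoxa5 only the KAP1 summit lies in the window. In Ezh2 only the Ring1b summit does. Syce1 and Stk31, chosen for display after their values were seen, are close promoters with both summits in the window.
Zfp503, chr14:21989552-21989851, minus strand: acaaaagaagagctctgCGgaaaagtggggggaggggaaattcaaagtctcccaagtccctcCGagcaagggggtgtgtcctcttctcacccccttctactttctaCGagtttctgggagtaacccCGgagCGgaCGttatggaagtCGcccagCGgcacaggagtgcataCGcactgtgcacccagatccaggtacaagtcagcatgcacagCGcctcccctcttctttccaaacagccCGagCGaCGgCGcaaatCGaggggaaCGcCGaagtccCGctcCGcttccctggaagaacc
Msx1, chr5:37824536-37824835, minus strand: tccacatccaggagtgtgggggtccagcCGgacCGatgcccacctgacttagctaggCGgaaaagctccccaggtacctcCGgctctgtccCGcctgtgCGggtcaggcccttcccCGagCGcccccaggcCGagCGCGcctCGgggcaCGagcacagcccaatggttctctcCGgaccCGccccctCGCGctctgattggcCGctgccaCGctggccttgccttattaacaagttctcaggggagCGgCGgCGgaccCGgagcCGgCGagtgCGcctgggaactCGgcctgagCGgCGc
Hoxa5, chr6:52204538-52204837, minus strand: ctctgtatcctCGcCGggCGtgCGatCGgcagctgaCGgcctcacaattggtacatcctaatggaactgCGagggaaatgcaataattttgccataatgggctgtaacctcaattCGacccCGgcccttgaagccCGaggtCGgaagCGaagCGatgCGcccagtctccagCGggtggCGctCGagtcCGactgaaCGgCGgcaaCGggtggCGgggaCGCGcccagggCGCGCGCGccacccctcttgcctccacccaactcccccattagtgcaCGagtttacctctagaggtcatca
Ezh2, chr6:47594981-47595280, minus strand: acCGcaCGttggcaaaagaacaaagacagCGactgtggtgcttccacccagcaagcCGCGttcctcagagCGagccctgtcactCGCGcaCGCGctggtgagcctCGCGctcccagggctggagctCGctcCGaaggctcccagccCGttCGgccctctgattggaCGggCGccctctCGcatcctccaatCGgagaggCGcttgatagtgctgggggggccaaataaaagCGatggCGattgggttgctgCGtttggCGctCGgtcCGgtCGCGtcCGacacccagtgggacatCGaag
Syce1, chr7:140787805-140788104, minus strand: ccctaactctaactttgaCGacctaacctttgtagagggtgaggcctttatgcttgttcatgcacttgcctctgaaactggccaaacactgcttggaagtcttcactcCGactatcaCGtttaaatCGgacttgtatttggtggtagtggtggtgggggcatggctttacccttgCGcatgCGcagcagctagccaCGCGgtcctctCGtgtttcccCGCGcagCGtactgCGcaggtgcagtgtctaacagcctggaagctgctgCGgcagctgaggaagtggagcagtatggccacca
Stk31, chr6:49395354-49395653, plus strand: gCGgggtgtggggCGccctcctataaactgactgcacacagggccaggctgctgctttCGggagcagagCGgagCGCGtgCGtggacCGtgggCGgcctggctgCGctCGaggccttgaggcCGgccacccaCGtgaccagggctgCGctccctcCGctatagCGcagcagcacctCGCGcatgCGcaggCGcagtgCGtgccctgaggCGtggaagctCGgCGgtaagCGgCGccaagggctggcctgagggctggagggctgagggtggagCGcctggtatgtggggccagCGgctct

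Counted from the first base printed, the KAP1 summit is base 250 in Zfp503, base 286 in Msx1 and base 274 in Hoxa5. The Ring1b summits of those 3 promoters lie outside the sequence, 4516 bp, 4478 bp and 1945 bp away from the KAP1 summits. In Ezh2, which encodes the methyltransferase of Polycomb repressive complex 2, the Ring1b summit is base 94, and the KAP1 summit lies 970 bp from it. In Syce1, a gene of the meiotic synaptonemal complex, the summits are base 226 for KAP1 and base 214 for Ring1b. In Stk31, a germline gene, they are base 135 and base 119. The printed windows hold 19 CpG in Zfp503, 29 in Msx1, 29 in Hoxa5, 31 in Ezh2, 14 in Syce1 and 28 in Stk31.

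Whether the name "summits far apart" holds depends on which peaks are paired. The deposited table gives 1 Ring1b peak and 1 KAP1 peak per promoter, while the peak lists often hold more. At 357 far promoters (22.2%, 20.2% to 24.4%) another pair of listed peaks at the same promoter had summits 100 bp or less apart. At 264 more the closest listed pair lay over 100 and under 500 bp apart. The closest pair was still 500 bp or more apart at 983 (61.2%, 58.8% to 63.6%), and 770 of these had 1 listed peak of each protein. For 1 promoter no KAP1 peak was listed. With KAP1 peaks outside the promoter region counted too, 905 far promoters (56.4%, 53.9% to 58.8%) had neither a closer listed pair at the promoter nor any KAP1 summit under 500 bp from the Ring1b summit. The name thus fits the table's pairs, and only part of the promoters themselves.

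**Figure D1:**
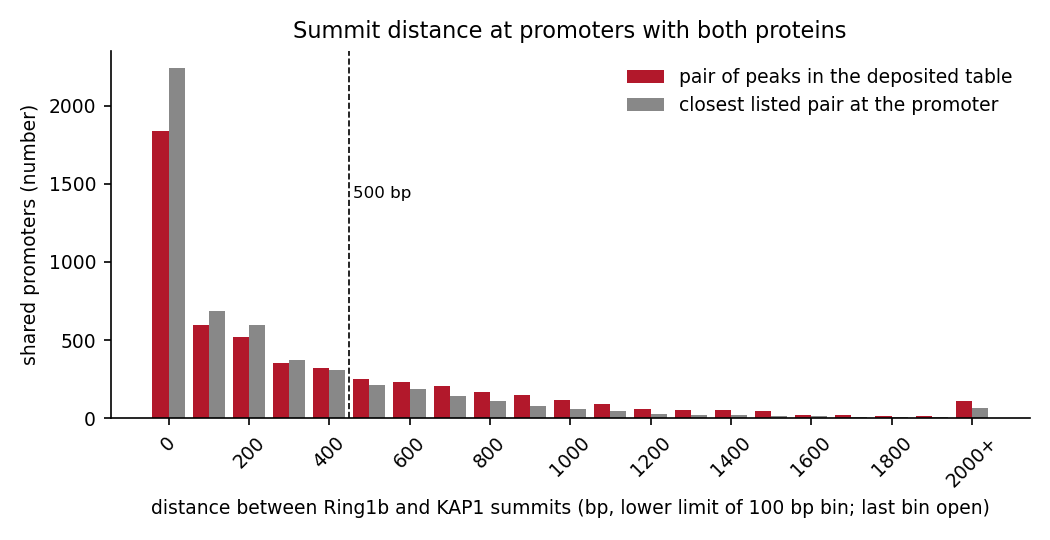
Number of promoters with both proteins (y axis) by the distance between the Ring1b and KAP1 summits (x axis, bins of 100 bp, last bin open), for the pair in the deposited table (red) and for the closest pair in the peak lists (grey). With the closest pair the first bin grows from 1836 to 2239 promoters, and 110 against 63 promoters remain in the open bin from 2000 bp.

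The pairing differs in the same way within named genes. At Clcn4-2, a chloride transporter gene, the table's summits lay 2202 bp apart and a listed pair lay 10 bp apart. At Mycn, which encodes a MYC family transcription factor, the table's distance was 1623 bp and the closest pair 7 bp apart. The promoter of Hoxd9 gave 1011 bp and 50 bp. By contrast Glis1, a zinc finger gene, had 1 listed peak of each protein at its promoter, 1258 bp apart. Nkx6-1, a regulator of ventral neural tube and pancreas, also had 1 of each, 5343 bp apart, with no KAP1 summit closer to the Ring1b summit. In the table, the Ring1b peak was the highest-scoring one at all 324 far promoters with 2 or more listed Ring1b peaks. The same held at all 694 such promoters with both proteins, so it is a property of the table and not of the far set. The KAP1 peak was the highest-scoring one at 568 of 619 far promoters (91.8%, 89.3% to 93.8%), beside 93.3% of 1321 over all.

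Distances ran from 500 bp to 7993 bp with a median of 872 bp (95% interval of the median 848 to 892). Most far promoters lay in the lower part of that range: 586 had 500 to 749 bp and 417 had 750 to 999 bp, while 95 had 2000 to 3999 bp and 15 had 4000 bp or more. Just inside the threshold, at 500 bp, were 2410018L13Rik, Sept10 and Zhx3. Just outside it were Aatf and Nbea at 499 bp and Prkd2 at 498 bp. Zhx3 had another listed pair 17 bp apart, while Aatf and Nbea had 1 listed peak of each protein.

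The 10 genes with the largest distances lay under Ring1b regions of 7546 to 12426 bp. All 10 carried a Ring1b score of 3100. The score is 10 times the authors' -log10 p for a peak and ranks peaks within 1 list only. In the Ring1b list 3100 is a tied value shared by many peaks, so it does not order these loci. Otx1, a homeobox gene of the forebrain (chromosome 11, 21994764 to 22001651), had the largest distance. Its Ring1b region spanned 12426 bp with the summit 7793 bp from the transcript start, and its KAP1 summit (score 128) lay 200 bp from the start. Another KAP1 summit inside that Ring1b region lay 619 bp from the Ring1b summit.

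Pax6, which directs eye and brain development (chromosome 2, 105668896 to 105698410), had summits 7404 bp apart at its upstream promoter. There the KAP1 summit (score 67) lay 192 bp upstream of the outermost start and the Ring1b summit 7212 bp downstream, within the gene. The same Ring1b region of 12178 bp also covered the internal Pax6 promoter, where another KAP1 summit (score 71) lay 62 bp from that Ring1b summit. Pax6 is therefore both a far and a close gene with 1 Ring1b peak. At Zfp503, a zinc finger gene (chromosome 14, 21983959 to 21989601), the KAP1 summit (score 180) lay 1 bp upstream of the start. The Ring1b summit lay 4515 bp downstream, and a KAP1 summit 418 bp from it was listed within the same Ring1b region.

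Msx1 is a homeobox gene of limb and craniofacial tissue (chromosome 5, 37820491 to 37824585). Its KAP1 summit (score 106) lay 35 bp downstream of the start and its Ring1b summit 4443 bp upstream. Msx1as, its antisense transcript, shares the Ring1b region of 9769 bp but was paired with another KAP1 peak, at 7629 bp. At Nkx6-1 (chromosome 5, 101659184 to 101664711) the KAP1 summit lay 346 bp into the gene. The Ring1b summit lay 5689 bp downstream of the start, past the annotated end of the gene. Mecom, a zinc finger oncogene, had its Ring1b summit 4994 bp upstream of the start and its KAP1 summit 679 bp downstream. Islr2 (5843 bp), 2700086A05Rik (6015 bp) and Mir196b (4857 bp), the last a microRNA gene within the HoxA cluster, complete the set.

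**Figure D2:**
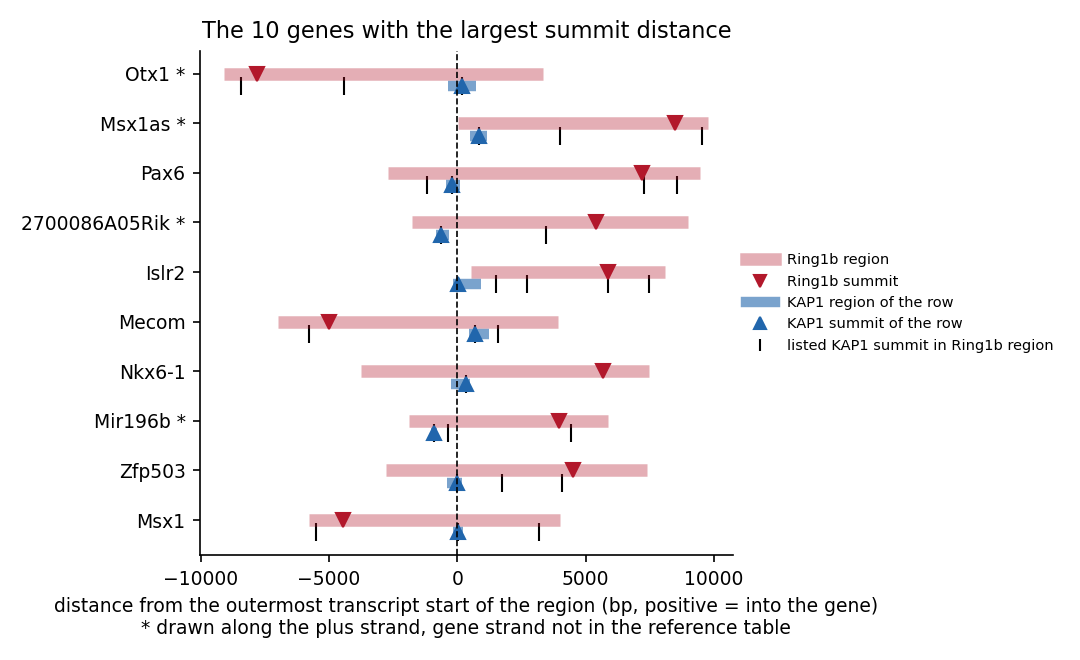
Ring1b regions (pink bars) with their summits (red triangles), the KAP1 regions and summits of the table's pair (blue) and other listed KAP1 summits in the Ring1b region (black ticks), for the 10 genes with the largest distance. The x axis is the distance in bp from the outermost transcript start of the promoter region, positive into the gene, or along the plus strand for genes marked with an asterisk. The KAP1 summit of each pair sits within 1000 bp of that start while the Ring1b summit lies 3958 to 8464 bp away, on either side.

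Ring1b regions of far promoters had a median width of 1465 bp (1365 to 1571), against 657 bp (628 to 696) at close promoters. Overlapping narrow regions cannot have far summits, so this is tied to the rule. KAP1 regions had nearly the same median width in both sets, 629 bp and 628.5 bp. The median Ring1b score was 494 (425 to 563) at far and 135.5 (127 to 144) at close promoters. The median KAP1 score was 139 (134 to 143) and 140 (135 to 145). The medians of the far and close sets thus stood apart for Ring1b and nearly coincided for KAP1.

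The share of far promoters was lowest where Ring1b regions were 500 to 999 bp wide, at 19.6% (17.7% to 21.7%). It was 53.6% (50.3% to 56.9%) from 2000 bp to below 5000 bp and 69.3% (61.7% to 76.2%) at 5000 bp or more. Over bands of KAP1 score it stayed between 28.3% and 31.4%. Over bands of KAP1 width it was 36.3% (33.7% to 39.0%) below 500 bp, 26.9% (25.4% to 28.5%) from 500 to 999 bp and 36.5% (33.0% to 40.1%) from 1000 to 1999 bp. Above that, 10 of only 13 promoters were far. The far share thus varied with KAP1 width too, although the median widths of the far and close sets nearly coincided. The highest Ring1b scores by number among far promoters were those of Glis1 (3233), Paqr9 (3227), Ssbp2 (3226), Ppp2r2c (3216) and Gpr25 (3211). Their summit distances were 827 to 1325 bp and their KAP1 scores 100 to 336. The highest KAP1 scores were those of Tsc22d1 (923), Cxcr7 (888), Rgs20 (881), Atf3 (817) and Mesdc1 (759). Tsc22d1, which encodes a leucine zipper protein, had a Ring1b region of only 344 bp lying wholly inside a KAP1 region of 2728 bp. High scores of one protein thus occurred with both wide and narrow regions of the other. For contrast, the close promoters with the highest Ring1b scores by number were those of Gsc2 (3203, summits 94 bp apart), Foxe3 (3202, 39 bp) and Slc39a8 (3167, at the same base). The same limit holds for them.

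**Figure D3:**
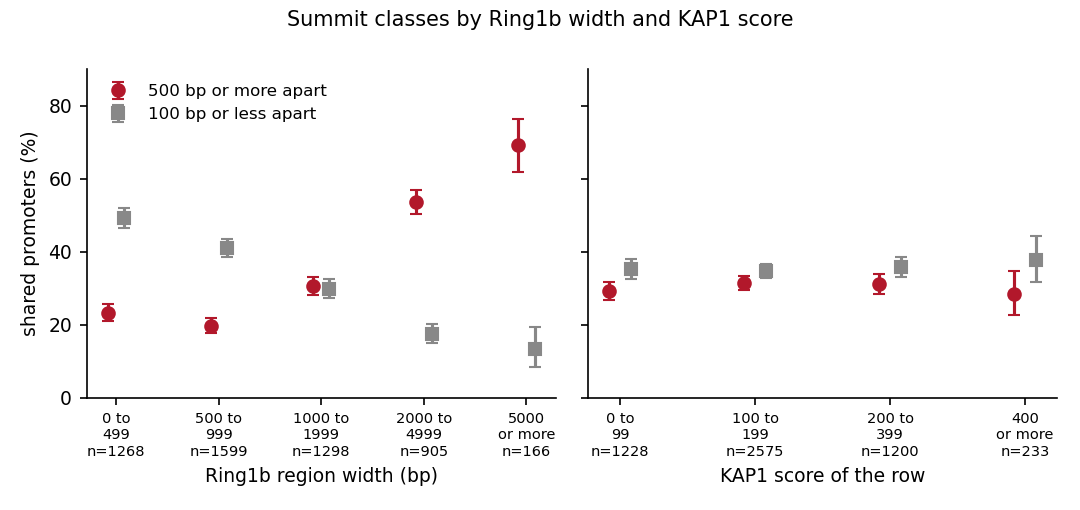
Share of promoters with both proteins (y axis, %, exact 95% intervals) whose summits lay 500 bp or more apart (red) or 100 bp or less apart (grey), by the width of the Ring1b region in bp (left) and by the KAP1 score of the pair (right), with the number of promoters under each band. From 1000 bp upward the red points climb from 30.5% to 69.3% with Ring1b width, while across KAP1 scores they stay between 28.3% and 31.4%.

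Far summits did not mean separate regions. The paired regions overlapped by at least 1 bp at 1067 far promoters (66.5%, 64.1% to 68.8%), beside 89.0% of all 5236. In 595 (37.1%) the KAP1 region lay wholly inside the Ring1b region, nearly the share over all promoters (37.2%). In 59 (3.68%, beside 19.8% of all) the Ring1b region lay inside the KAP1 region, and in 413 they overlapped in part. Foxa2, an endoderm pioneer factor, is of the first kind: its KAP1 region of 657 bp lay inside a Ring1b region of 7516 bp, with summits 1901 bp apart. In such pairs the KAP1 summit lay nearer to an edge of the Ring1b region than to its centre at 46.1%, and the Ring1b summit itself at 17.5%. In close promoters with KAP1 inside Ring1b those shares were 12% and 12.6%.

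At the other 538 far promoters (33.5%, beside 11.0% of all) the regions did not touch. Their Ring1b regions were narrow, with a median of 533.5 bp and a median score of 105, and the median gap was 324 bp. Ezh2 is one: its Ring1b region of 785 bp and KAP1 region of 503 bp were 336 bp apart. Jag1, a Notch ligand gene, is another, with a gap of 77 bp between a Ring1b region of 3321 bp and a KAP1 region of 428 bp. At the Jag1 promoter, however, another listed pair had summits 9 bp apart. The largest gap was 2153 bp. Disjoint pairs therefore included both weak narrow Ring1b peaks and wide ones.

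Positions relative to the transcript start were measured where the deposited region was 2 kb long, that is 1 kb on each side of a single start. That held for 1341 far and 1596 close promoters; the other regions join several starts and were left out. The rule fixes the distance between the summits and not directly which one lies at the start, but it is tied to wide Ring1b regions. In far promoters the KAP1 summit was the nearer one at 821 of 1341 (61.2%, 58.6% to 63.8%). That share was 56.8% (55.4% to 58.3%) over all 4514 promoters with both proteins and a single start, 58.5% (56.0% to 60.9%) at those with summits over 100 and under 500 bp apart, and 51.5% (49.0% to 54.0%) at close promoters. Among far promoters with Ring1b regions of 2000 bp or narrower it was 56.7%. It was 69.4% of 519 far promoters with KAP1 inside Ring1b and 60.3% of 350 with partial overlap. Where the regions did not touch it was 53.4% of 421, and with Ring1b inside KAP1 49.0% of 51. The part of region width in this share was not tested. In far promoters the KAP1 summit lay within 250 bp of the start at 41.6% (39.0% to 44.3%), and the Ring1b summit did so at 21.6% (19.4% to 23.9%). In close promoters, where both sit at nearly the same place, these shares were 65.3% and 65.5%.

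Strand was known for 951 of the far promoters with a single start. Their Ring1b summits lay at a median of 460 bp downstream of the start (412 to 501) and their KAP1 summits at a median of -94 bp, that is upstream (-122 to -58). The commonest arrangement, at 496 (52.2%, 48.9% to 55.4%), was KAP1 at or upstream of the start and Ring1b downstream. It was seen at 27.1% of all 3261 promoters with both proteins, a single start and known strand. Where summits lay over 100 and under 500 bp apart it was seen at 28.4% of 1127. The reverse was seen at 145 (15.2%, 13% to 17.7%), beside 9.81% of all. Both lay downstream at 223 (23.4%, beside 39.8% of all) and both at or upstream of the start at 87 (9.15%, beside 23.2%). Summits farther apart straddle a start more easily, so these shares are tied to the rule. With strand left aside, summits lay on opposite sides of a single start at 68.2% of far promoters. In between that share was 39.2%, and at close promoters 9.84%. A Ring1b summit downstream of the start was not particular to far promoters. It was seen at 75.6% of them, at 71.5% of those in between and at 66.9% of all. Among the 1183 close promoters of known strand the medians were 20 bp for Ring1b and 14 bp for KAP1, and in between 178 bp and 18 bp. KAP1 was the nearer summit at 67.0% of 682 far promoters where the only listed peak of each protein lay 500 bp or more apart, and at 54.1% of 281 with a listed pair 100 bp or less apart.

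Named promoters show these arrangements. At Wnt1, a signalling ligand of the midbrain (chromosome 15, 98789857 to 98793830), KAP1 lay 160 bp upstream of the start and Ring1b 2752 bp downstream, in the gene. At Vim, which encodes the intermediate filament protein vimentin, KAP1 lay 480 bp upstream and Ring1b 354 bp downstream. The reverse held at Ezh2 for the start of the deposited region, with Ring1b 157 bp upstream and KAP1 813 bp downstream. The annotated Ezh2 gene (chromosome 6, 47530274 to 47595270) begins farther upstream, and both summits lie within it. At Tbx20, a T-box gene of the heart, KAP1 lay 6 bp and Ring1b 3678 bp downstream. At Klf13, a zinc finger transcription factor gene, both lay upstream, Ring1b by 32 bp and KAP1 by 1228 bp.

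**Figure D4:**
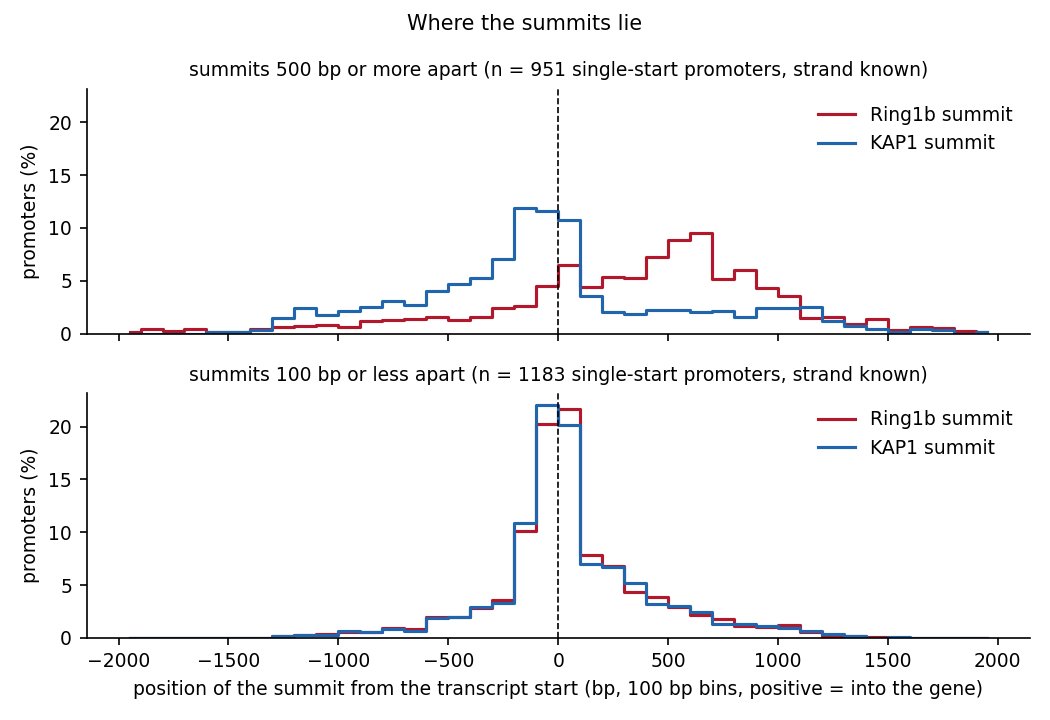
Share of promoters (y axis, %) with the Ring1b summit (red) or KAP1 summit (blue) in each 100 bp bin around the transcript start (x axis, bp, positive into the gene), for 951 far (top) and 1183 close promoters (bottom) with a single start and a known strand. In far promoters the KAP1 curve is highest just upstream of the start (median -94 bp) and the Ring1b curve downstream of it (median 460 bp), whereas in close promoters both peak at the start.

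Gene groups were described from 12 lists, over the genes with at least 1 promoter carrying both proteins. Of all 5161 such genes, 30.8% had a far promoter and 35.6% a close one, and 20 had both. Among the 4128 genes whose Ring1b region was narrower than 2 kb, 24.3% had a far promoter. Of all 5161 genes, 18.8% had a far promoter with no listed pair closer than 500 bp, called no closer listed pair here. The lists were chosen with earlier results of these data known, and no list was tested. A share in a list is read beside these backgrounds only. Over all lists 93 genes were far and 53 close, beside 1588 far and 1838 close among all 5161 genes. When the closest listed pair took the place of the table's pair, 65 list genes were far and 75 close. The background, here counted in promoters, moved too, from 1605 far and 1844 close to 1028 far and 2248 close.

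Of 27 neuroectoderm regulators with both proteins, 17 (63.0%, 42.4% to 80.6%) had a far promoter and 2 a close one, and 13 had no closer listed pair. Besides Otx1, Pax6, Nkx6-1 and Msx1 they included Gbx2 (3753 bp), Emx1 (2995 bp), Irx3 (2879 bp) and Olig2 (1859 bp), which pattern the forebrain, midbrain and spinal cord. Neurog1, a proneural gene, had the smallest far distance of the list at 721 bp. Of 31 mesoderm and limb regulators, 18 (58.1%, 39.1% to 75.5%) were far and 6 close, and 16 had no closer listed pair. Hand1, a heart and placenta regulator, had summits 4352 bp apart, although another KAP1 summit lay 18 bp from its Ring1b summit. Tal1, a regulator of blood formation (2790 bp), and Eomes, a T-box gene of the primitive streak (1648 bp), were also far.

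Of 17 endoderm regulators, 9 (52.9%, 27.8% to 77.0%) were far and 2 close. Prox1 (2445 bp), Foxa2 (1901 bp) and Gata6 (1613 bp) are transcription factors of liver, gut and primitive endoderm, and Cxcr4 (1917 bp) is a chemokine receptor of definitive endoderm. Of the 9 far genes, 7 had no closer listed pair, while at Cxcr4 a listed pair lay 41 bp apart. Most genes of these 3 lists had wide Ring1b regions, with medians over all list members of 5707 bp, 5049 bp and 4804 bp against 887 bp over all genes. Only 1, 7 and 3 of their members had a region narrower than 2 kb, and 0, 2 and 1 of those were far. The far shares of these lists and the width of their Ring1b regions thus move together, and the part of width in them was not tested.

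Hox genes, which specify position along the body axis, were split: of 20 with both proteins 10 were far (50.0%, 27.2% to 72.8%) and 6 close. Hoxb7 had the largest distance, 3968 bp, inside a Ring1b region of 25283 bp, the widest among far promoters, with another KAP1 summit 91 bp from the Ring1b summit. Hoxc5 followed at 3017 bp, while Hoxd10 (608 bp), Hoxc10 (642 bp) and Hoxb13 (643 bp) lay nearer to the threshold. Of the 10 far Hox genes, 7 had no closer listed pair, while at Hoxc5 a listed pair lay 481 bp apart. Hoxa7, Hoxa10, Hoxb9, Hoxd8 and Hoxd12 were among the close ones. Promoters of 1 cluster can share a Ring1b region, as those of Hoxa5 and 2700086A05Rik did.

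Signalling ligands were far at 12 of 30 genes (40%, 22.7% to 59.4%) and close at 6. They included Wnt11 (3772 bp), Wnt1 (2912 bp), Jag1 (2060 bp) and Fgf11 (1656 bp). The interval includes the share over all genes. Of the 12 far ligand genes, 8 had no closer listed pair, while at Jag1 a listed pair lay 9 bp apart. Fibroblast markers, listed because of the feeder cells, were far at 5 of 10 genes (50%, 18.7% to 81.3%) and close at 3, Fbn1, Fn1 and Thy1. The far ones were Pdgfra (2699 bp), Twist2 (1220 bp), Col5a1 (878 bp), Vim (834 bp) and Twist1 (538 bp). Of these 5, 3 had no closer listed pair, while listed pairs lay 62 bp apart at Pdgfra and 78 bp apart at Col5a1.

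Genes of the pluripotent state mostly had Ring1b regions narrower than 2 kb, at 15 of 19 genes, much like the 4128 of 5161 over all. Of 19 pluripotency-associated genes with both proteins, 11 (57.9%, 33.5% to 79.7%) were far and 3, Fgf4, Pou5f1 and Rif1, were close. The list's median Ring1b region was 581.5 bp wide with a median score of 96.5, beside 887 bp and 211 over all genes. Of its 15 genes with a region narrower than 2 kb, 8 were far, beside 24.3% over all such genes. Prdm14, which represses differentiation and DNA methylation genes (chromosome 1, 13113428 to 13127163), had summits 2161 bp apart but another listed pair 12 bp apart. Mycn (1623 bp), Myc (1445 bp) and Dppa3, a maternal factor of the early embryo (1415 bp), also had closer peaks. At Mycn another listed pair at the promoter lay 7 bp apart. At Myc and Dppa3 no listed pair at the promoter was closer than 500 bp, but a KAP1 summit outside the promoter region lay 4 bp and 36 bp from the Ring1b summit of the pair. At Sox2 the distance was 1040 bp, at Klf2 1072 bp and at Utf1 1051 bp. Of the 11, 7 had no closer listed pair at the promoter.

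Of 18 Polycomb genes, 10 (55.6%, 30.8% to 78.5%) were far and 4, E2f6, Max, Rybp and Suz12, were close. The far ones encode subunits of both complexes and include Kdm2b (1723 bp), Bcor (1165 bp), Bmi1 (948 bp), Pcgf2 (626 bp), Phc1 (700 bp) and Ring1b's own gene Rnf2 (774 bp) for the first, and Ezh2 (970 bp), Phf19 (928 bp) and Jarid2 (717 bp) for the second. Of the 18 genes, 14 had a Ring1b region narrower than 2 kb, and 7 of these were far. For 5 of the 10 a pair closer than 500 bp was listed at the promoter. Among 7 genes of the KAP1 pathway only the DNA methyltransferase gene Dnmt3a was far (1737 bp), while Trim28 and Hdac2 were close.

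Germline genes were placed the other way. Of 23 with both proteins, 1 (4.35%, 0.110% to 21.9%) was far and 15 (65.2%, 42.7% to 83.6%) were close. The far one was Tdrd5, a gene of the transposon-silencing machinery of spermatocytes, at 655 bp. The close ones had summits 5 to 85 bp apart and include Smc1b (5 bp), a meiotic cohesin subunit, Msh4 (6 bp), a crossover factor, Mael (10 bp), a piRNA pathway gene, and Dazl (70 bp), an RNA-binding protein of germ cells. The list's median Ring1b region was 825 bp wide, near the 887 bp over all genes. None of the 21 genes narrower than 2 kb was far, beside 24.3% over all such genes. The cell cycle and p53 list had 1 far gene of 8, Rb1 at 1242 bp, and the housekeeping list 1 of 4, Pkm at 562 bp. Both had a listed pair under 100 bp apart.

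**Figure D5:**
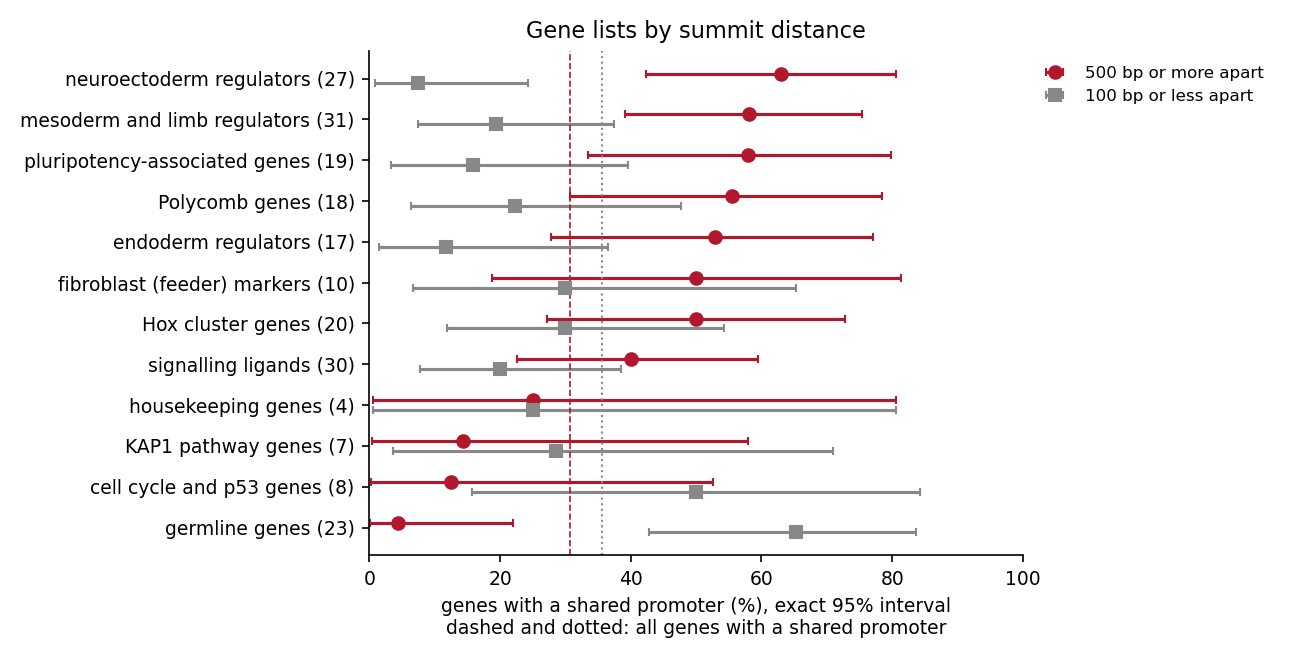
Share of genes with both proteins (x axis, %, exact 95% intervals) that had a far (red) or close (grey) promoter, for each of 12 gene lists with the number of genes in parentheses; the dashed and dotted lines mark 30.8% and 35.6% over all 5161 genes. The neuroectoderm, mesoderm and pluripotency lists have far intervals wholly to the right of the dashed line, and the germline list has its far interval wholly to the left.

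A gene with several promoters could fall into both sets. This was so for 20 genes, and at 3 of them, Cacnb3, Lmo4 and Pax6, the far and the close promoter shared 1 Ring1b peak. At Lmo4, a LIM-domain gene, the summits lay 16 bp apart at the internal promoter and 2975 bp apart at the upstream one, under a Ring1b region of 4780 bp. At Cacnb3, a calcium channel subunit gene, the distances were 17 bp and 3093 bp. Esrrg, an orphan nuclear receptor gene, had separate Ring1b peaks: 9 bp at its internal promoter under a region of 956 bp, and 1007 bp at the promoter under a region of 4330 bp. Far promoters also shared peaks among themselves. The 1605 promoters had 1591 distinct Ring1b peaks and 1602 distinct KAP1 peaks, and Zfhx4 and 2700069I18Rik shared both peaks of the pair.

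The Ring1b library of tamoxifen-treated KAP1 fl/fl cells gave a list of Ring1b peaks in cells treated to delete KAP1. No Ring1b library came from vehicle-treated KAP1 fl/fl cells. A promoter's absence from that list therefore cannot be read as loss of Ring1b. A peak of that list lay in the promoter region of 16 far promoters (0.997%, 0.571% to 1.61%), beside 45 of all 5236 (0.859%), and of 20 close promoters (1.08%, 0.664% to 1.67%). The intervals overlap widely, and at this number of peaks a difference between the sets was not detectable. The knockout list held 8928 peaks with a median width of 158 bp, was called against a control of the other cell line, and its scores cannot be set against those of the other lists. The 8 of these 16 with the largest distances were Clcn4-2, Maz, Cryzl1, Nova2, Zeb1, Klf13, Pdk2 and Hist2h3c2. Zeb1, a repressor that drives epithelial-mesenchymal transition, had the highest knockout-list score among them (196), and Pdk2, a mitochondrial kinase gene, the lowest (51.4). At 5 far promoters (0.312%) the knockout-list peak overlapped the Ring1b peak of the pair, beside 0.344% of all.

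Reference sequence does not depend on the rule, although promoters are not replicates and no test was made. A window was called CpG-rich at a GC content of 50% or more and an observed to expected CpG ratio of 0.6 or more. Of the 859 far windows, 661 (77.0%, 74.0% to 79.7%) were CpG-rich, beside 73.4% of all 2976 windows of promoters with both proteins. The share was 74.6% (71.9% to 77.3%) of 1029 windows in between and 69.4% (66.6% to 72.1%) of 1088 close ones. The median GC content was 66.3% (65.3% to 66.7%) at far and 63.0% (62.7% to 63.7%) at close promoters. Far promoters with a Ring1b region 2 kb or narrower had a CpG-rich share of 76.0%, and close ones 68.2%. Among printed far promoters, the observed to expected ratio was 1.02 at Hoxa5, 0.999 at Ezh2, 0.794 at Msx1 and 0.747 at Zfp503, and among the close ones 0.75 at Stk31 and 0.625 at Syce1. Gpr25 and Tsc22d1, by contrast, were far with ratios of 0.283 and 0.268.

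Short motifs were counted on both strands of the same windows, and a match is a description of the letters only. GGGCGG, the core of a GC box, was in 75.9% (72.9% to 78.7%) of far and 68.8% (66.0% to 71.6%) of close windows, beside 35.7% of all 32851 RefSeq windows of the same length. In between it was in 772 of 1029 windows (72.3% to 77.6%), and in 73.0% of all 2976 windows of promoters with both proteins. GGGCGG was thus about as common in between as at far promoters. CCAAT was in 36.2% of far and 35.8% of close windows, beside 37.4% of all RefSeq windows, and TATAAA in 6.87% and 6.80%, beside 13.6%. CACGTG, an E-box, was in 9.78% (7.88% to 12%) of far and 13.1% (11.1% to 15.2%) of close windows, beside 7.15%. TGCCGC was in 23.9% and 19.5%, beside 11.6%. Shares in between were 33.9% for CCAAT, 6.51% for TATAAA, 11.4% for CACGTG and 21.7% for TGCCGC. Over all windows of promoters with both proteins they were 35.2%, 6.72%, 11.5% and 21.5%. Matches of different motifs may overlap, and the part of GC content in these shares was not tested. In the printed sequences GGGCGG occurs in Msx1 and Stk31, CCAAT in Msx1, Hoxa5 and Ezh2, TGCCGC in Zfp503, Hoxa5 and Syce1, and TATAAA and CACGTG in Stk31.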

How the data were processed

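The submitters' processing notes name MACS 1.4.2, Bowtie2, bedtools 2.16.2 and CASAVA 1.8.2, with build mm10 (GRCm38). The authors deposited 1 peak list per ChIP library against its control, and tables of promoter regions. Per the file headers, the deposited score of a peak is MACS's -log10 p multiplied by 10. The sources used here do not say how the table pairs peaks; 94.5% of the far KAP1 summits were in the list, but only 41.5% of their table scores were within 1 of the list score. Read depths are not given, so precision is given as exact (Clopper-Pearson) 95% intervals over promoters or genes, with order-statistic intervals for medians, and both cover counting error only.

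Distances, overlaps (1 bp or more), closest listed pairs and sequence features were computed with Python 3.11.15, pandas 2.3.3 and scipy 1.17.1, after checks on simulated data. Gene names and sequences came from RefSeq tables of GRCm38.p6: 1513 of 1605 far promoters matched by symbol, and 859 matched a start within 100 bp. Exons were not used here. The members and lists were chosen with earlier results of these data known. The limit of start positions to regions of a single start was set after the data were seen. Genes were named by rule: the 10 largest distances, 3 on each side of the threshold, the 5 highest scores of each protein, up to 8 with a knockout-list peak, up to 4 per list, and 3 close promoters. Genes beyond it (the other list members, genes with both kinds of promoter, the close germline genes) were chosen after their values were seen. A few genes named by the rule are left out of the text.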

Additional observations from a re-analysis of the deposited data

How the results depend on the processing

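No paired analysis was possible because each group has 1 library. Of 79 alternative values, 53 stayed within their interval or spread, and 26 moved. In 9 a difference near 0 changed sign: for the median KAP1 width, the median KAP1 score and the knockout-list share, where far and close were not told apart by the reported values. With 300 bp as the far threshold, the far share was 43.6%, and with 1000 bp 11.5%. It was 24.1% for Ring1b regions of 2000 bp or narrower and 35.9% with both scores at or above their list's median. The far minus close median Ring1b width of 808 bp became 648 bp at 300 bp and 1462.5 bp at 1000 bp, and the KAP1 width difference of 0.5 bp became 32.5 bp and -31.5 bp. The Ring1b score difference of 358.5 became 856.5 at 1000 bp and 707.5 for the higher scores. Another KAP1 summit lay closer to the Ring1b summit at 44.9% of far promoters, at 34.3% with 300 bp, at 65.9% with 1000 bp, and at 17.1% when it had to lie under 100 bp away. The KAP1 summit was nearer to the start at 56.7% for the narrower Ring1b regions. Far list members numbered 93 against 53 close ones, beside 1588 far and 1838 close among all 5161 genes. At 1000 bp the far list members numbered 53, where 11.5% of all promoters were far.

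The following were added after seeing the data. With the closest listed pair, the far share was 19.6% and the width differences 1130 bp for Ring1b and 35.5 bp for KAP1. The Ring1b score difference was 678.5, and the KAP1 summit was nearer to the start at 65.5%. List members were then 65 far against 75 close, the opposite order of counts to the reported one. Over all promoters 1605 far and 1844 close became 1028 far and 2248 close, so the background moved as well. With 1 listed peak of each protein, the far share was 23.2%, the Ring1b width difference 1089.5 bp and the Ring1b score difference 630. Another KAP1 summit was closer at 15.8%, and the KAP1 summit was nearer to the start at 65.9%. The far minus close difference in CpG-rich share, 7.56 points as reported, became 5.57 points. Between the interval ends it ran from -1.94 to 12.9, so far and close were not told apart. Here 45 list members were far against 42 close, beside 798 far and 1337 close over all such promoters. The cause was not tested in any of these. The lists rest on 1 library each, so replicate error is unknown, and fragments of about 200 bp limit how finely summits are placed.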
